A study of Rattus norvegicus with 16 samples.

Results

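Immediate early genes are switched on within minutes of a stimulus, before any new protein is made, and most of their mRNAs decay quickly. Several encode subunits of AP-1, a transcription factor in which a Fos protein pairs with a Jun protein, and others encode zinc-finger or ATF-family transcription factors or the proteins that shut the response down. In the colon they are known to respond to growth factors, injury and inflammatory signals. The 10 genes described here were chosen by name: the Fos-family subunits Fos, Fosb and Fosl1, the Jun-family subunits Jun and Junb, the transcription factors Egr1 and Atf3, and the feedback genes Ier3, Dusp1 and Zfp36. Of the 10, 9 were measured, each by 1 probe, among 15159 genes named on the array. No probe matched Fosb, which was not analysed here.

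Transcript levels were measured on single-colour Agilent microarrays in normal distal colon of 16 rats, 4 in each of 4 groups. All rats were (ACIxF344)F1 males aged 97 days, and each was either wildtype or Pirc/+, that is, heterozygous for the Pirc allele of the tumor suppressor gene Apc (rats of this genotype develop colonic adenomas, and as a germline allele it is carried by every cell of the colon). Rats 13, 17, 21 and 25 were untreated wildtype and rats 11, 15, 19 and 23 untreated Pirc/+. The treated groups received dextran sodium sulfate (DSS), a polymer that injures and inflames the colonic lining, at 4% in the water on days 40 to 47 and 54 to 61 (rats 14, 18, 22 and 26 wildtype, rats 12, 16, 20 and 24 Pirc/+), so the tissue was taken 36 days after the last DSS. Levels are given as log2 of the processed signal relative to the 75th percentile of the same array, so a level of 0 equals that percentile. The 75th percentile of the signal ran from 875.4 to 2194 intensity units over the arrays, and the share of spots well above background from 71.11% to 80.32%. The 7 measured epithelial markers, among them Epcam, Cdh1 and Vil1, were well above background on 16 of 16 arrays. Signal stood well above background on every array for 8 of the members and on 15 arrays for Fosl1, the exception being untreated wildtype rat 25. Each group lay in its own column of the 2 slides, so array column and group cannot be told apart. The tissue was not separated into cell types, so fewer cells of a type and less RNA per cell cannot be told apart either.

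Promoters are shown for members whose levels changed after DSS or moved together from rat to rat, since immediate early promoters are known for binding motifs close to the start site. RefSeq promoters of 300 bases (250 before the start site and 50 after it, rat build GRCr8) were found for 5 members. None was available for Fos, Jun, Atf3 and Ier3. Both strands were searched for the cAMP response element TGACGTCA, the AP-1 site TGANTCA, the Egr site GCGNGGGCG, the TATA box TATAAA and the CArG box bound by serum response factor. Capitals mark the matches in the 4 promoters below, and the searched sequence of Egr1 is not printed.
Fosl1 (chr1:212183635-212183934, plus strand): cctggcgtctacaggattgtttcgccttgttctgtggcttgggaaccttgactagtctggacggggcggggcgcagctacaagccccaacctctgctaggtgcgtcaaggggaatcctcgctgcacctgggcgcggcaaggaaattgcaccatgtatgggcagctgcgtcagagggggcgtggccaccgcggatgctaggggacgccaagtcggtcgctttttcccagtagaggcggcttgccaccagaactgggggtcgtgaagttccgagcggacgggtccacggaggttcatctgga
Junb (chr19:40080876-40081175, plus strand): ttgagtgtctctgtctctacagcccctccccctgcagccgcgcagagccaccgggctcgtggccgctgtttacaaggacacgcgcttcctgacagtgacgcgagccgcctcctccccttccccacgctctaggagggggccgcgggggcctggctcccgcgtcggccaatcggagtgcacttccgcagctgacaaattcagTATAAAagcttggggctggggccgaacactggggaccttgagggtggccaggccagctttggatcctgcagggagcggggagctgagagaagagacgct
Dusp1 (chr10:17184603-17184902, plus strand): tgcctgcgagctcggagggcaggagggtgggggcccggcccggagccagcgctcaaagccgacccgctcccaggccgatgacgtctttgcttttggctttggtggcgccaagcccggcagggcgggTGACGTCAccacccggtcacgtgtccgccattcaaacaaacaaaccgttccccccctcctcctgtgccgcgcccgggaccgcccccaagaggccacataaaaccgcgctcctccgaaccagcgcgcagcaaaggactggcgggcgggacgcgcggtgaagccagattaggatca
Zfp36 (chr1:92799059-92799358, minus strand): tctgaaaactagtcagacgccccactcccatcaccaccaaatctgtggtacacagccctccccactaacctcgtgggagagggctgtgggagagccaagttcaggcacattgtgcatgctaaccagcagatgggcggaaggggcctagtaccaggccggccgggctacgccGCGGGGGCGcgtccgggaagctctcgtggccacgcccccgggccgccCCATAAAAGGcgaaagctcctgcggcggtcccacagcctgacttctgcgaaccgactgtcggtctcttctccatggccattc
The CArG box stood 32 to 23 bases before the start site of Zfp36 and at 2 places before that of Egr1, compared with 1.64% of the 33469 rat promoters of the same length. The cAMP response element stood 124 to 117 bases before the start of Dusp1 (1.83% of all promoters), and the Egr site 79 to 71 bases before that of Zfp36 (4.98%). A TATA box was found in Junb, 49 to 44 bases before the start (14.22%). The AP-1 site was in 0 of the 5 windows (7.33% of all promoters), and the Fosl1 window held none of the 5 motifs. A match describes letters in a window and not a bound site.

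The first question was whether the family differed in level after DSS. Fosl1, which encodes Fra-1, a Fos-family subunit known from invasive and wound-edge epithelium, was the 1 member past the threshold, and none of the other 8 passed it in any comparison. In untreated wildtype rats 13, 17, 21 and 25 its levels were -5.58, -5.62, -6.68 and -6.74. In DSS-treated wildtype rats 14, 18, 22 and 26 they were -1.44, -0.996, -3.40 and -4.35. Every treated wildtype rat lay above every untreated one. In untreated Pirc/+ rats 11, 15, 19 and 23 the levels were -2.46, -4.89, -3.21 and -4.01. In DSS-treated Pirc/+ rats 12, 16, 20 and 24 they were -1.40, -2.12, 1.53 and -2.42. These groups did not overlap either, though the lowest treated rat, 24, was at almost the level of the highest untreated rat, 11. The share of all probes whose treated and untreated groups did not overlap was not counted. Fosl1 had the widest range of levels of the 9 genes over the 16 rats, also with rat 25, whose signal was not well above background, left aside.

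**Figure D1:**
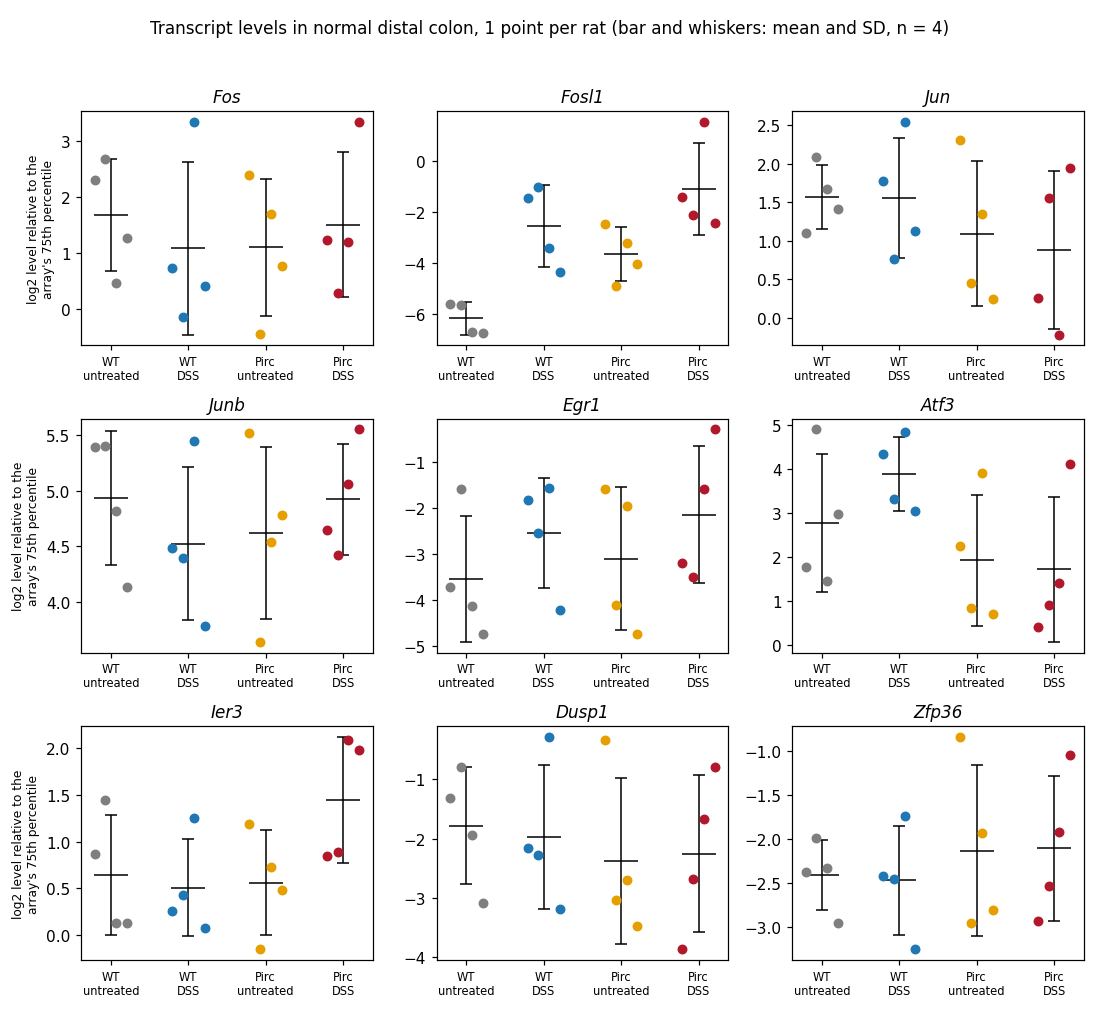
Transcript levels of the 9 measured immediate early and AP-1 genes in each rat (vertical axis, log2 level relative to the 75th percentile of the array, with its own scale in each panel; horizontal axis, the 4 groups of wildtype (WT) and Pirc/+ rats), with the mean and SD of each group of 4. Fosl1 is lowest in untreated wildtype rats, between -6.74 and -5.58. The other 8 genes overlap between all groups of a panel that differ in treatment alone, and overlap was not counted over all probes.

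The Fosl1 transcript was enhanced by DSS over both genotypes by 3.08 on the log2 scale (SE 0.62, 95% interval 1.76 to 4.40), a factor of 8.44, with an adjusted p of 0.00300 in limma. This was 1 of 9 members past the threshold (adjusted p of 0.05 or less), where 17.2% of all 30367 probes passed. Within the slides, which hold 2 rats of each group, the difference was 3.15 and 3.001. In wildtype rats alone the difference was 3.61 (SE 0.87), a factor of 12.2, adjusted p = 0.0333, and 1 of 9 members passed beside 3.84% of all probes. This call was lost when any of the rats 13, 14, 17, 18, 21 or 25 was left out, with adjusted p values of up to 0.123 and differences of 3.09 to 3.80. With another background correction (normexp) the difference in wildtype rats was 1.95 (SE 0.65, adjusted p = 0.178 in limma). The lowest signal well above background on the untreated wildtype arrays was between -7.26 and -6.56, beside Fosl1 levels of -6.74 to -5.58. In Pirc/+ rats the difference was 2.54 (SE 0.87, factor 5.83), adjusted p = 0.0660. Here 0 of 9 members passed beside 14.7% of all probes. An unadjusted p under 0.05 was found for 2 of 9 members and 8244 of all 30367 probes. Without rat 20 this Fosl1 difference was 1.67 (adjusted p = 0.206), and without rat 24 it was 2.98 (adjusted p = 0.0403). The effects in the 2 genotypes differed by -1.07 (SE 1.23, adjusted p = 0.817), a difference whose 95% interval ran from -3.70 to 1.57 and which lay between -1.94 and -0.55 with 1 rat left out, and 0 of 9 members passed for this term, as did 0.0428% of all probes.

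Lists of other cell types moved with DSS too. Over both genotypes 10.2% of all probes passed the threshold upward. All 6 fibroblast markers did so, as did 5 of 6 markers of stratified and urothelial epithelium and 3 of 5 of neutrophils. Macrophages had 5 of 7 and endothelium 3 of 5. No marker of these lists passed downward. The mean level of the stratified and urothelial list was -5.09 to -4.80 in untreated wildtype rats, -4.96 to 0.59 in treated wildtype rats, -4.94 to -4.16 in untreated Pirc/+ rats and -0.37 to 1.47 in treated Pirc/+ rats. Its marker Krt13 was not well above background on any array of untreated wildtype rats. The other measured markers of this list, Krt5, Krt14, Sprr3, Upk1b and Upk3a, were well above background on every array. The mean of the fibroblast list lay between -3.74 and -2.89 in the untreated rats of both genotypes and between -2.78 and -0.04 in the treated rats. Its marker Lum was not well above background in any untreated rat. The other fibroblast markers, Col1a1, Col1a2, Col3a1, Dcn and Pdgfra, were well above background in every rat. The neutrophil list ranged from -4.94 to -3.99 in untreated rats and from -4.04 to -0.84 in treated rats. The part of these cells in the Fosl1 difference was not tested. Within groups, the deviations of Fosl1 were set against 13 list means and 2 array measures, and those of Fos likewise. None of the 30 relations passed in exact permutation tests (two-sided, smallest adjusted p = 0.692 for r and 0.540 for rho), the closest being Fosl1 against the colonocyte list (Pearson r = -0.65, exact p = 0.0410; Spearman rho = -0.61; r = -0.41 without rats 18 and 20). Against the goblet cell list its r was -0.60. Of the lists that moved, neutrophils gave r = 0.595 (0.51 without rats 18 and 20). Macrophages gave 0.36, stratified and urothelial epithelium 0.28, fibroblasts 0.17 and endothelium 0.09.

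**Figure D2:**
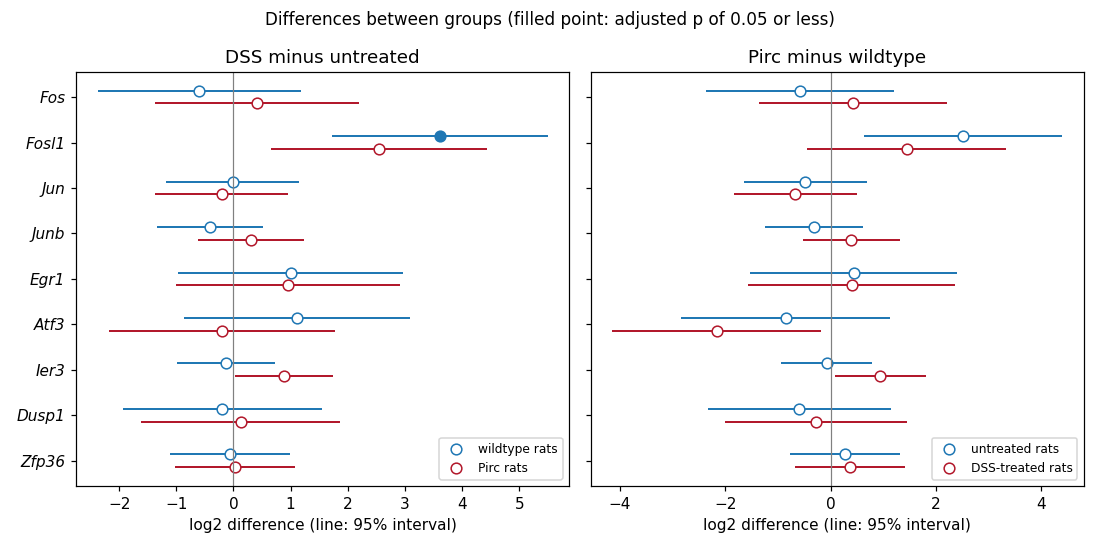
Log2 differences of the 9 genes between groups (horizontal axis) with 95% intervals, for DSS minus untreated on the left and Pirc/+ minus wildtype on the right; filled points have an adjusted p of 0.05 or less. The single filled point is Fosl1 for DSS in wildtype rats, at 3.61.

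For each of the other 8 members the 95% interval of the DSS difference over both genotypes included 0. Fos, the founding AP-1 subunit, was at 2.30, 2.67, 0.47 and 1.27 in untreated wildtype rats 13, 17, 21 and 25 and at 0.72, -0.14, 3.33 and 0.41 in treated rats 14, 18, 22 and 26. In Pirc/+ rats it was at 2.38, -0.44, 1.68 and 0.77 without DSS and at 1.22, 0.28, 1.19 and 3.33 with it. The treated groups held both the highest values and some of the lowest, and the groups overlapped in both genotypes. The DSS difference of Fos over both genotypes was -0.10 (SE 0.58, 95% interval -1.34 to 1.15). Jun, the partner with which Fos forms the classical AP-1 dimer, differed by -0.11 (SE 0.38, interval -0.92 to 0.70), and Junb, which can take its place in the dimer, by -0.05 (SE 0.30, interval -0.70 to 0.59). The interval of Junb thus reached no further than a factor of 2 in either direction, whereas that of Fos did. Egr1, a zinc-finger transcription factor induced by the MAP kinase pathway, was at -3.71, -1.58, -4.13 and -4.74 in untreated wildtype rats and at -1.83, -2.54, -1.56 and -4.23 in treated ones. The higher mean of the treated rats, also seen in Pirc/+ rats, gave a difference of 0.98 over both genotypes (SE 0.64, interval -0.40 to 2.35, adjusted p = 0.377). It did not exceed the spread between rats.

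Atf3, a stress-induced ATF-family factor that can pair with Jun proteins, showed its largest difference between the genotypes. In DSS-treated wildtype rats 14, 18, 22 and 26 it was at 4.34, 3.31, 4.84 and 3.05, and in DSS-treated Pirc/+ rats 12, 16, 20 and 24 at 0.42, 0.92, 1.42 and 4.12. Of the Pirc/+ rats, 12, 16 and 20 lay below all treated wildtype rats, and rat 24 lay among them. The difference was -2.17 (SE 0.92, interval -4.13 to -0.20), a factor of 4.49, with an unadjusted p of 0.0328 and an adjusted p of 0.120 in limma. Without rat 24 it was -2.96 with an adjusted p of 0.0274. For this comparison 0 of 9 members passed with all rats, beside 18.2% of all probes. In untreated rats the Atf3 levels were 1.77, 4.90, 1.46 and 2.97 (wildtype) and 2.24, 0.84, 3.91 and 0.70 (Pirc/+), which overlapped (difference -0.85, SE 0.92, adjusted p = 0.823). That value lay between -1.51 (without rat 19) and -0.14 (without rat 17) when 1 rat was left out.

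Among the feedback genes, Ier3, which encodes a short-lived regulator of cell survival and ERK signaling, was at 1.19, -0.15, 0.73 and 0.48 in untreated Pirc/+ rats and at 0.84, 0.89, 2.08 and 1.98 in treated ones. Rats 20 and 24 were above all 4 untreated Pirc/+ rats, while rats 12 and 16 were not above rat 11. The difference was 0.88 (SE 0.40, 95% interval 0.04 to 1.73, unadjusted p = 0.0413, adjusted p = 0.162). In wildtype rats it was -0.13 (SE 0.40), and the 2 effects differed by 1.02 (SE 0.56, adjusted p = 0.541). Dusp1, a phosphatase that inactivates MAP kinases, and Zfp36 (tristetraprolin), which binds AU-rich elements and speeds the decay of cytokine mRNAs, had DSS differences over both genotypes of -0.03 (SE 0.57) and -0.01 (SE 0.34). Their 95% intervals were -1.25 to 1.18 and -0.74 to 0.71. Within the slides the Dusp1 difference was -1.38 on the first and 1.32 on the second, opposite in sign. The same held for each member other than Fosl1, below 0 on the first slide and above 0 on the second. Fos was at -1.21 and 1.02, Zfp36 at -0.54 and 0.51 and Egr1 at -0.02 and 1.98. The cause was not tested.

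The Pirc allele was the second question. Without DSS, 0 of 9 members passed, and 0% of all probes did in limma (1 of 9 members and 3103 of all probes had an unadjusted p under 0.05). Fosl1 levels of the untreated groups did not overlap: every Pirc/+ rat, from -4.89 to -2.46, exceeded every wildtype rat, from -6.74 to -5.58. How many of all probes separated the untreated genotypes in the same way was not counted, so this separation is a description only. The difference was 2.51 (SE 0.87, 95% interval 0.64 to 4.38), a factor of 5.70, with an unadjusted p of 0.0118 and an adjusted p of 0.333. With normexp it was 1.04 (SE 0.65, adjusted p = 0.481 in limma). In DSS-treated rats the genotypes overlapped in Fosl1 and differed by 1.44 (SE 0.87, adjusted p = 0.286). Without rat 20 this was 0.57 and without rat 26 it was 0.84. Over both treatments the difference was 1.98 (SE 0.62), a factor of 3.94, adjusted p = 0.0392, and 1 of 9 members passed beside 17.5% of all probes. This difference was 0.69 within the first slide and 3.26 within the second, and 1.11 with normexp (adjusted p = 0.123 in limma). The call was lost when any of the rats 11, 12, 13, 17, 19, 20, 21, 22, 23, 25 or 26 was left out, with a highest adjusted p of 0.0781 and differences of 1.54 to 2.07. With a minimum change of a factor of 2 added, the counts of members were the same in all 7 comparisons, and the share of all probes after DSS was 5.99% over both genotypes, 2.77% in wildtype rats and 7.46% in Pirc/+ rats. It was 2% for Pirc/+ over both treatments, 0% in untreated and 5.47% in DSS-treated rats. The DSS and the Pirc comparisons share rats, so the same untreated wildtype values enter both.

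The other 8 members varied widely between rats of the same group. The SD within groups was 1.28 for Fos, 1.41 for Egr1, 1.42 for Atf3 and 1.24 for Dusp1 on the log2 scale, 0.83 for Jun, 0.74 for Zfp36, 0.65 for Junb and 0.60 for Ier3. The median over the 19397 probes well above background on all arrays was 0.25. Between 96% and 99.8% of those probes had a smaller SD than a given member, with Ier3 at the low end. Fosl1, at 1.35, was in the same range. No member passed for a difference between the slides (smallest adjusted p = 0.838 in limma), where 881 of all probes did. This test covers a shift between the slides and not a DSS difference that varies between them. Dixon's criterion was applied to each of the 9 genes in each of the 4 groups, 36 checks on the same 16 rats. In 0 of them was a rat set apart from the others, where 1.8 would be expected by chance.

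**Figure D3:**
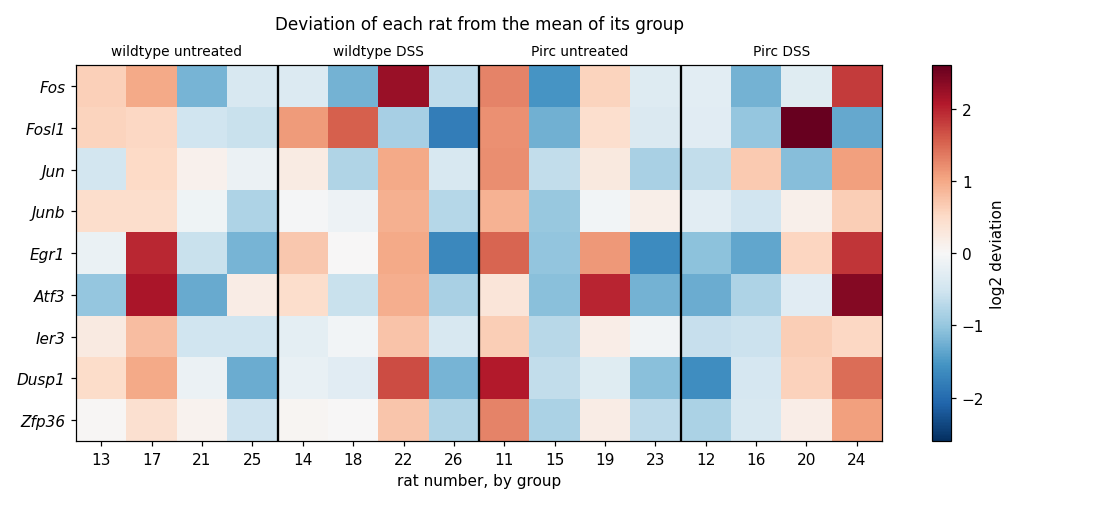
Deviation of each rat (columns, by group) from the mean of its group for each gene (rows), in log2 units, red above and blue below the mean. Columns are mostly of 1 color, as in rats 17, 22, 11 and 24, with Fosl1 blue in rats 22 and 24.

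The deviations moved together. In each group 1 rat was the highest of its group for most of the 9 genes: rat 17 (untreated wildtype) for 8, rat 22 (DSS wildtype) for 8, rat 11 (untreated Pirc/+) for 8 and rat 24 (DSS Pirc/+) for 7. Rat 24 was at the same time the lowest of its group for Fosl1. At the other end, rat 26 was the lowest treated wildtype rat for 7 genes and rat 15 the lowest untreated Pirc/+ rat for 5. Over the 28 pairs of genes without Fosl1, the correlation of deviations had a median r of 0.75 and ranged from 0.41 (Jun with Ier3) to 0.94 (Dusp1 with Zfp36), above 0 in all 28. The 8 pairs with Fosl1 had a median of 0.31 and ranged from -0.24 with Jun to 0.44 with Ier3. Deviations were not correlated for pairs of other genes on these arrays. Whether the values are particular to the members was therefore not tested.

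Fos was tested against each of the other 8 genes over the 16 rats, after removal of the group means, by enumerating all 331776 rearrangements within groups (exact permutation tests, two-sided, adjusted over 8 pairs). The highest relation was that with Junb (Pearson r = 0.84, adjusted p = 0.00395; Spearman rho = 0.86, adjusted p = 0.00482), and r was 0.77 without rats 22 and 24, which were farthest from the median of Fos. Ier3 followed (r = 0.82, adjusted p = 0.00395; rho = 0.76, adjusted p = 0.00991; r = 0.78 without both rats, exact permutation tests). Zfp36, Dusp1, Egr1 and Atf3 had r of 0.76, 0.75, 0.74 and 0.72 with adjusted p of 0.00656 in each case by exact permutation, and rho of 0.72, 0.63, 0.67 and 0.59 with adjusted p of 0.0157, 0.0358, 0.0290 and 0.0361. Without rats 22 and 24 their r was 0.66, 0.61, 0.69 and 0.63. Jun was the weakest that passed (r = 0.64, adjusted p = 0.0257, exact permutation), its rho of 0.53 did not pass (adjusted p = 0.0809), r fell to 0.44 without both rats, and the call was lost when rat 11, 18, 22 or 24 was left out. The relation of Fosl1 with Fos did not pass (r = 0.03, adjusted p = 0.922; rho = 0.15, adjusted p = 0.645, exact permutation). Without rats 22 and 24 that r was 0.41, so the low value rested on them. Over the 8 rats of the first slide r was 0.93 for Junb, 0.87 for Ier3 and 0.49 for Fosl1, and over those of the second 0.78, 0.78 and -0.19, with the other 5 genes between 0.53 and 0.80 on either slide. The deviations used here were from the group mean over both slides. DSS differences that vary between the slides therefore remain in these values.

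**Figure D4:**
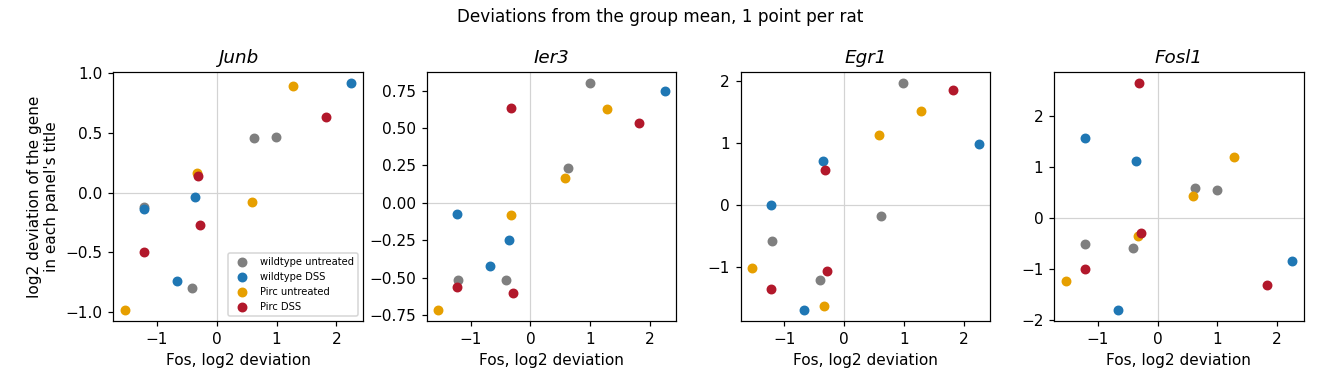
Deviation from the group mean of Fos (horizontal axis) against that of Junb, Ier3, Egr1 and Fosl1 (vertical axis, both in log2 units), 1 point per rat colored by group. The points of Junb, Ier3 and Egr1 rise from left to right (r = 0.84, 0.82 and 0.74), and those of Fosl1 do not (r = 0.03).

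Genes outside the family with the most similar levels over the 16 arrays, among 10354 bright genes, were ranked by Pearson r. The mean of the members was matched most closely by Btg2, an antiproliferative immediate early gene (r = 0.92), followed by Mllt11 (0.90), Csrnp1 (0.83), Tcim (0.83) and Mafg (0.81). Fos itself was closest to Tcim (0.84), Btg2 (0.84), Ier2 (0.83), Phf13 (0.82) and Mllt11 (0.82). Egr1 was closest to Hbegf, the EGF-receptor ligand HB-EGF (0.86), and then to Csrnp1, Sik1, Epha2 and Slc38a2. Atf3 was closest to the kinase gene Plk2 (0.87) and the orphan nuclear receptor gene Nr4a1 (0.86), followed by Cttnbp2nl, Dusp8 and Phf13. Fosl1, looked up after its values had been seen, was closest to Pvr (0.97), Sfnl1 (0.95), Phlda1 (0.94), Cd55 (0.94) and Arl5b (0.92). These are descriptions over 16 arrays that share group differences as well as deviations between rats.

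The wider pathway was described by 8 lists of genes in DSS-treated against untreated Pirc/+ rats, where 8.14% of all probes passed upward and 6.51% downward and the median difference of all probes was 0.04. Among other AP-1 subunits and partners with a basic leucine zipper, 7 of 19 rose and 0 fell (median 0.06). The largest change was in Jdp2, a repressor that dimerizes with Jun (3.75, SE 0.60, adjusted p = 0.000879, well above background on 1 of 4 untreated arrays). Batf, the AP-1 partner of lymphoid and myeloid cells, rose by 2.17 and Cebpd by 2.10, while Fosl2 (-0.11, adjusted p = 0.850) and Jund (-0.10, adjusted p = 0.819) did not pass.

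Of 22 other immediate early transcription factors, 3 rose and 2 fell (median -0.11). Ier5l rose by 2.72 (SE 0.44, adjusted p = 0.000991) and Elk3, a ternary complex factor that works with serum response factor, by 1.36. Nr4a2, an orphan nuclear receptor, was diminished by a factor of 2.51 (-1.33, SE 0.29, adjusted p = 0.00698). Egr4 passed, but was well above background on 1 array only, so no fold is given. Of 18 other immediate early effectors, 5 rose and 1 fell (median 0.36): Ccn2, a matrix-associated growth regulator, by 3.19 (SE 0.71, adjusted p = 0.00779, well above background on 1 of 4 untreated arrays), Phlda1 by 2.02, Ccn1 by 1.86, and Plaur, the urokinase receptor, by 1.79. Ptgs2, the inducible cyclooxygenase, rose by 1.63, but was well above background on 1 of 4 untreated and 3 of 4 treated Pirc/+ arrays.

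Dual-specificity phosphatases and MAP kinase feedback genes gave 2 rises and 0 falls among 12 (median 0.26). Dusp14 was enhanced by a factor of 24.1 (4.59, SE 0.64, adjusted p = 0.000390) and Dusp2 by 1.40 on the log2 scale (well above background on 3 of 4 untreated arrays). None of the 7 genes of the Zfp36 family and its mRNA decay partners passed (median -0.01). Of 19 MAP kinases upstream, 2 rose and 2 fell (median 0.03), with Map3k8, the kinase known as Tpl2, up by 1.58, Rps6ka4 up by 0.66, and Rps6ka3 and Mapk9 lower by -0.49 and -0.45. The 16 textbook AP-1 target genes had 8 rises and 0 falls, with a median of 1.72. Plaur and Ptgs2 belong to this list and to the other immediate early effectors, so their rises are counted in both. Tnf was enhanced by a factor of 15.3 (3.94, SE 0.52, adjusted p = 0.000275) and Cd44, a hyaluronan receptor, by a factor of 7.90 (2.98, SE 0.33, adjusted p = 0.000121). Mmp10 and Mmp9, which encode secreted proteases, were not well above background on any untreated Pirc/+ array and rose at least 8.40-fold and at least 1.91-fold (adjusted p = 0.00838 and 0.000927). Of 8 heat shock genes 2 rose (median 0.52), Hspb1 by 3.47 and Dnaja1 by 0.49.

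**Figure D5:**
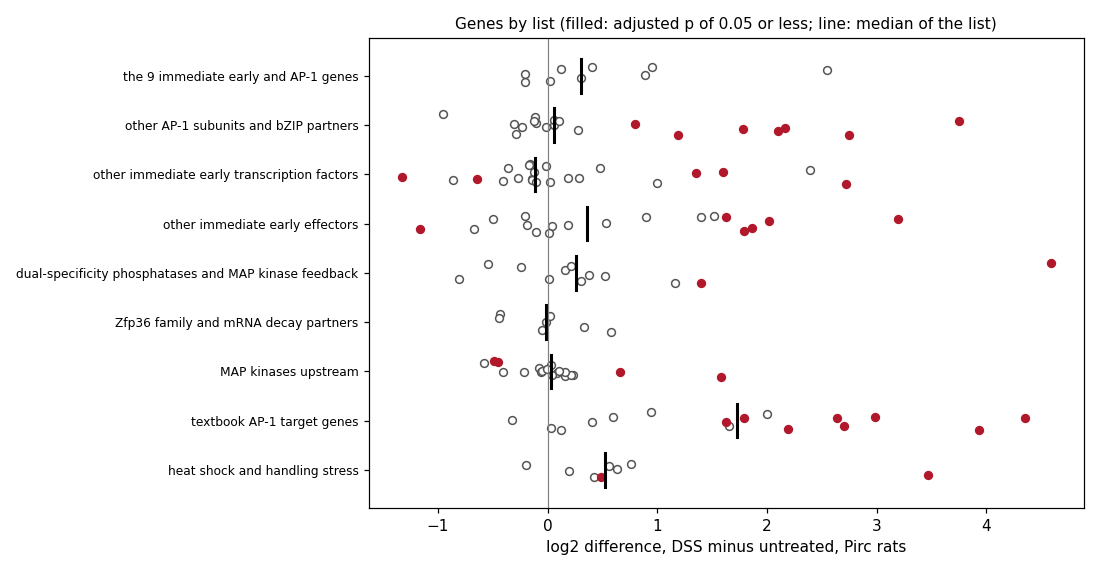
Log2 differences between DSS-treated and untreated Pirc/+ rats (horizontal axis) for the 9 members and the genes of the 8 lists (rows), 1 point per gene; filled points have an adjusted p of 0.05 or less and black lines are list medians. The textbook AP-1 target genes have a median of 1.72, and the 9 members one of 0.30 with no filled point.

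Over both genotypes the counts upward and downward were 6 and 0 for the AP-1 partners, 3 and 1 for the other transcription factors, 5 and 0 for the effectors, 4 and 0 for the phosphatases and feedback genes, 0 and 0 for the Zfp36 list, 2 and 2 for the MAP kinases, 10 and 0 for the AP-1 targets and 2 and 0 for heat shock genes, where 10.2% of all probes passed upward and 6.99% downward. In wildtype rats alone, leaving aside the AP-1 partners, 1 of the effectors (Ccn2), 2 of the targets (Cd44 and Tnf) and 1 heat shock gene (Hspb1) passed, all upward, and none of the other 4 lists did (2.94% of all probes passed upward and 0.899% downward). In untreated rats no gene of any list passed between Pirc/+ and wildtype. The lists were drawn up with earlier results of these arrays known, so their counts are descriptions. The remaining marker lists were counted upward and downward for DSS over both genotypes. Counts were 0 and 0 of 7 epithelial, 2 and 1 of 6 colonocyte and 0 and 1 of 5 goblet cell markers. Smooth muscle had 1 and 1 of 7, T cells 1 and 0 of 6 and B cells 2 and 0 of 3. Glial and neuronal markers had 1 and 0 of 6.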

How the data were processed

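Total RNA of normal distal colon from 16 rats was labeled with Cy3 and hybridized to 16 arrays. The values deposited by the authors are linear intensities, from which Feature Extraction had subtracted background, with no normalization between arrays. The submitters' processing notes also name Partek, and its settings were not used here. The files give accessions, and 18006 of 30367 probes were matched through them to gene symbols of a RefSeq table.

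Signals were divided by the 75th percentile of their array and converted to log2, and spots of 1 probe were averaged, those with outlier flags left out. Groups were taken from the labels. The groups were compared in limma 3.58.1 (R 4.3.3; lmFit and eBayes on all 16 arrays with a mean for each group), with Benjamini-Hochberg adjustment over all probes, and a probe passed at an adjusted p of 0.05 or less. A gene was represented by its brightest probe. Folds given as "at least" set the lowest signal well above background of each array against the treated mean. There were 7 comparisons. The fit was tested on simulated data. Lists, markers and members were chosen with earlier results of these data known. From each pathway list, up to 4 of the largest passing changes after DSS in Pirc/+ rats were named, and others named were chosen after their values were seen. The number of arrays limits the precision. Nothing says whether the rats of a group shared a litter or cage. Alternatives were other normalizations, background corrections, filters, blocks, thresholds and fits, and each rat left out, the last for the relations of Fos chosen after seeing the data. A gene of the AP-1 partner list is included in that list's counts and median but is not reported here by name.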

Additional observations from a re-analysis of the deposited data

How the results depend on the processing

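The DSS difference of Fosl1 over both genotypes passed in all 25 alternatives run for it (2.02 to 3.38, adjusted p 0.00145 to 0.00846 in limma), and 1 member passed in each, with or without a 2-fold minimum. For Pirc/+ in untreated rats and for the difference between the DSS effects 0 members passed under every alternative run. For DSS in Pirc/+ rats the count became 1 with normexp, with a filter on dim probes and with slide and array row as blocks. For DSS in wildtype rats it became 0 with normexp, a common floor, only the compared groups and no moderation. For Pirc/+ over both treatments it became 0 with normexp, a common floor and no moderation. With each rat left out, the counts ranged from 0 to 1 for DSS in Pirc/+ rats (1 without rat 24 or 26), DSS in wildtype rats and Pirc/+ in DSS-treated rats (1, Atf3, without rat 24), and from 0 to 2 for Pirc/+ over both treatments (2, Fosl1 and Atf3 at -1.91, without rat 24). The cause of these changes was not tested.

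Differences near 0 changed sign. Quantile normalization gave -0.053 for Zfp36 (DSS in Pirc/+ rats) and -0.0026 for Junb (Pirc/+ over both treatments). Normexp gave 0.013 for Dusp1 and 0.00092 for Zfp36 (DSS over both genotypes), 0.14 for Fosl1 and 0.035 for Egr1 (difference between the DSS effects), and r = -0.10 for Fos with Fosl1. With rats left out one at a time, the ranges that crossed 0 were, for DSS in Pirc/+ rats, Atf3 -1.004 to 0.46, Dusp1 -0.36 to 0.81, Fos -0.20 to 0.83, Jun -0.56 to 0.20, Junb -0.025 to 0.60 and Zfp36 -0.33 to 0.46. For DSS in wildtype rats they were Dusp1 -0.76 to 0.21, Ier3 -0.38 to 0.13, Jun -0.35 to 0.25 and Zfp36 -0.30 to 0.21. For DSS over both genotypes they were Dusp1 -0.32 to 0.31, Fos -0.47 to 0.12, Jun -0.29 to 0.091, Junb -0.22 to 0.10 and Zfp36 -0.19 to 0.20. For Pirc/+ in DSS-treated rats they were Dusp1 -0.76 to 0.29, Egr1 -0.22 to 0.85 and Fos -0.18 to 1.17, and in untreated rats Egr1 -0.066 to 1.09, Ier3 -0.29 to 0.19, Junb -0.61 to 0.012 and Zfp36 -0.15 to 0.55. For Pirc/+ over both treatments they were Fos -0.38 to 0.30 and Junb -0.11 to 0.20. For the difference between the DSS effects they were Dusp1 -0.17 to 1.003, Egr1 -0.70 to 0.46, Jun -0.55 to 0.21 and Zfp36 -0.27 to 0.52. Of the 63 member differences, 22 others kept their sign but moved by over 1.5 times without 1 rat. Fos with Fosl1 ranged from r = -0.11 to 0.22. The count of genes related to Fos was 7 with both other normalizations and 6 to 7 with a rat left out.

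Of 1432 differences of the other 8 members under alternatives, 2 passed. Normexp moved the median difference of all probes for DSS over both genotypes from 0.055 to 0.146, and for Pirc/+ over both treatments from -0.058 to -0.183. Quantile normalization changed the share of passing probes that were higher from 59.4% to 37.7% for DSS over both genotypes, with 55.6% becoming 37.3% for DSS in Pirc/+ rats and 76.6% becoming 53.3% for DSS in wildtype rats. Normexp lowered the count of passing probes for DSS in wildtype rats from 1165 to 369. No paired analysis was possible because each rat has its own number and the groups share none.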
